A study of Mus musculus with 2 samples.

Results

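Messenger RNA for 52 splicing factor and hnRNP genes was examined in sorted mouse haematopoietic progenitors. The members were taken by name alone, as every probe set whose only gene symbol in the platform's annotation begins with Hnrnp, Srsf, Snrp, Sf3a, Sf3b, U2af or Prpf (with a digit after Srsf, Sf3a, Sf3b and Prpf). This gave 71 probe sets out of the 10833 that name 1 gene, and 52 genes out of 8251. By prefix they were 9 SR protein genes (16 probe sets), 16 hnRNP genes (22), 8 snRNP genes (10), 8 SF3 genes (10), 3 U2AF genes (3) and 8 PRPF genes (10). Of the 52 genes 51 are protein coding and 1, Snrp1c-ps2, is a pseudogene. The series holds 2 samples of bone marrow cells that lack lineage antigens and carry c-kit and Sca-1 (Lin-c-kit+Sca1+, or LSK), a fraction rich in haematopoietic stem and multipotent progenitor cells. The labels give no genotype, strain, age or treatment for either, name no second condition, and do not state whether they came from separate animals or separate sorts. Differences are therefore those between 2 samples of 1 group, which may be technical, and no test or p-value can be given. The RNA was amplified in 2 rounds.

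Splicing removes introns from pre-mRNA in the spliceosome, which is built from small nuclear RNAs wrapped in proteins (snRNPs) and many further factors. Sm proteins form the ring that holds most of these RNAs, U2AF marks the end of the intron, SF3A and SF3B anchor the U2 snRNP on the branch point, and PRPF proteins build and rearrange the catalytic core. SR proteins mostly promote the use of nearby exons, and hnRNP proteins coat the nascent RNA and often oppose them. In blood this machinery has a known place in disease, since SF3B1, SRSF2 and U2AF1 are recurrently mutated in human myelodysplastic syndromes.

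Values are linear array signals after quantile normalization, in arbitrary units. A probe set was counted as above controls, and its gene as measured, if its signal exceeded, in both samples, the 90th percentile of 15 probe sets for bacterial genes, which was 12.1 in sample 1 and 8.91 in sample 2. For a difference, signals under 20 were first set to this floor, so a fold against a floored signal is a lower bound and is written as "at least". Fold changes are ratios of such signals, and differences are log2(sample 2) minus log2(sample 1). The floor held 57.7% of all values in each sample. Signals of different probe sets depend on their probes and are not set against each other as levels. Among marker genes for the sort, 11 of 14 for stem and early progenitor cells lay above controls (all but Mecom, Tal1 and Tek). For lineage antigens 3 of 11 did, with Cd3d, Cd3e, Cd3g, Cd4, Cd5, Cd8a, Cd8b1 and Itgam not above it.

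Most of the splicing genes were measured in these cells. Of the 52 genes, 45 (86.5%) had at least 1 probe set above controls in both samples, beside 57.0% of all 8251 named genes. By probe set the count was 54 of 71 (76.1%), beside 49.3% of all 12422. All 8 snRNP genes (the pseudogene Snrp1c-ps2 among them), all 8 SF3 genes and all 3 U2AF genes counted. So did 8 of 9 SR genes, 12 of 16 hnRNP genes and 6 of 8 PRPF genes. The 7 genes that did not were Srsf1, Hnrnpc, Hnrnph2, Hnrnpl, Hnrnpu, Prpf39 and Prpf4b. In sample 2 alone 50 member genes exceeded its control level, beside 71.0% of all named genes, and in sample 1 alone 46 did, beside 64.3%.

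**Figure D1:**
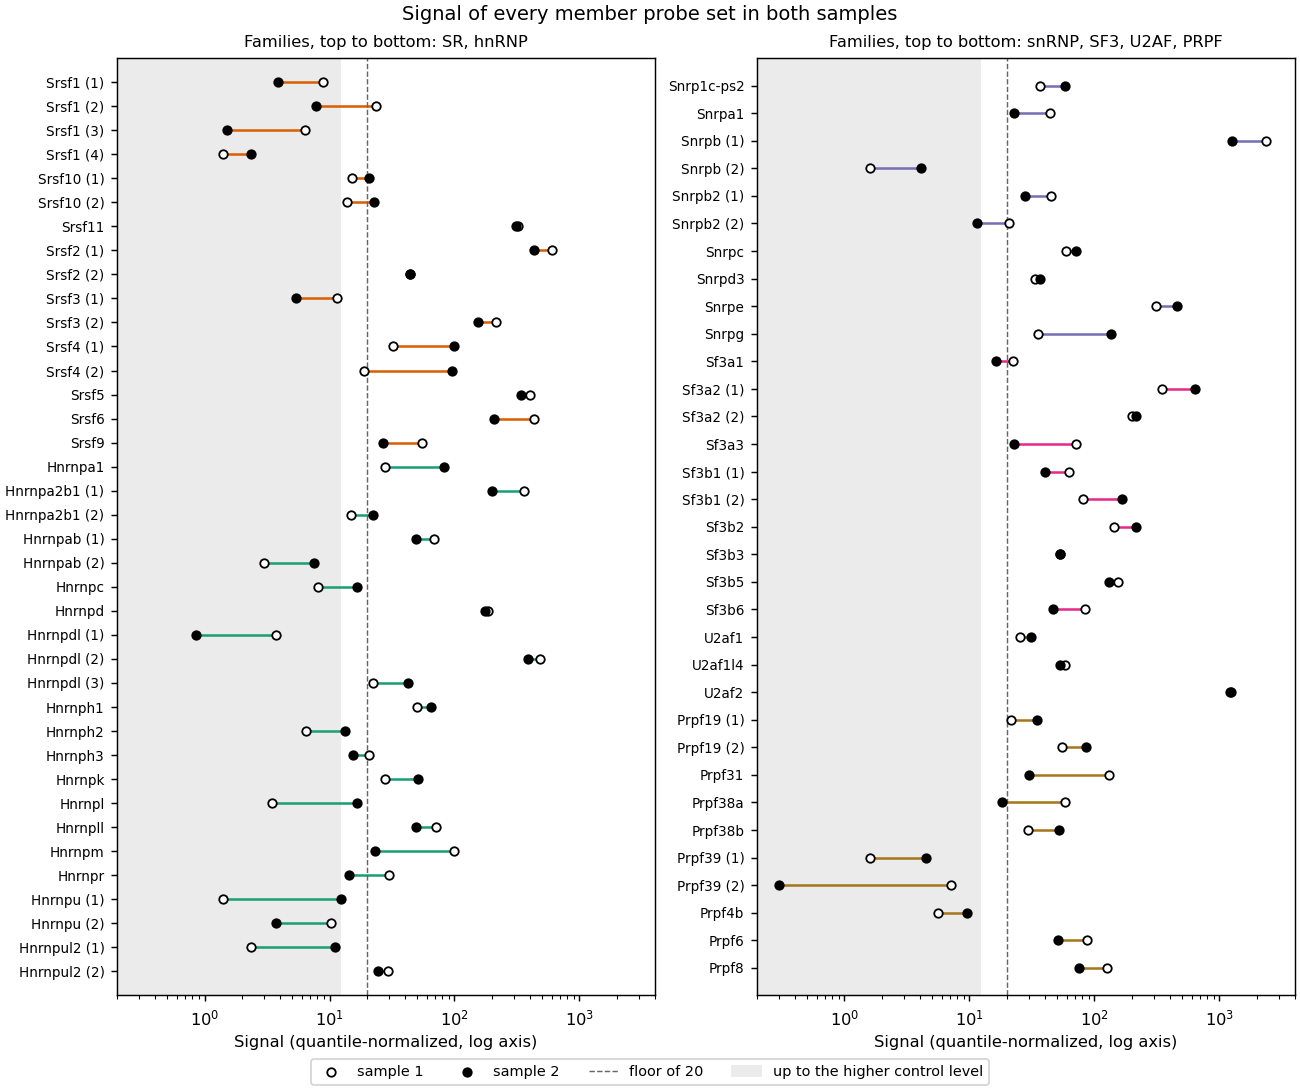
Signal of each of the 71 member probe sets (horizontal log axis, quantile-normalized) in sample 1 (open circles) and sample 2 (filled circles), joined by a line coloured by family, with numbers in brackets for several probe sets of 1 gene. The dashed line is the floor of 20 and the grey area ends at the higher control level, 12.1; Srsf4 and Snrpg lie far to the right in sample 2, and Prpf31, Hnrnpm and Sf3a3 in sample 1.

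The signed median difference of the splicing genes was close to that of all probe sets, and a few genes differed widely. Without regard to sign, the median difference was 1.5-fold over the members above controls, beside 1.35-fold over all probe sets above controls. The members above controls had a median difference of -0.06 over 54 probe sets, of which 30 were higher in sample 1 and 24 in sample 2, beside a median of 0.0 over all 6118 such probe sets. The 54 are those that passed the control level, not all members. Of them, 6 were 2-fold or more higher in sample 1 (10.5% of all 6118 were) and 5 were 2-fold or more higher in sample 2 (9.40% of all). Together that is 20.4% of the members and 19.9% of all probe sets above controls, so the share of members that differed was near the background and is no result about splicing genes as a class. With both signals above the floor the share was 9 of 45, or 20%, beside 22.6% of all. The spread between the 2 samples, as a replicate SD on the log2 scale, was 0.64 over the 54 and 0.58 over all 6118. Of the 6118, 694 lay at the floor in both samples, so their difference was set to 0, and none of the 54 did. This lowers the 1.35-fold and the 0.58 of all probe sets. With both signals above the floor the SD was 0.63 for the members and 0.62 for all, so the spreads were nearly equal.

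**Figure D2:**
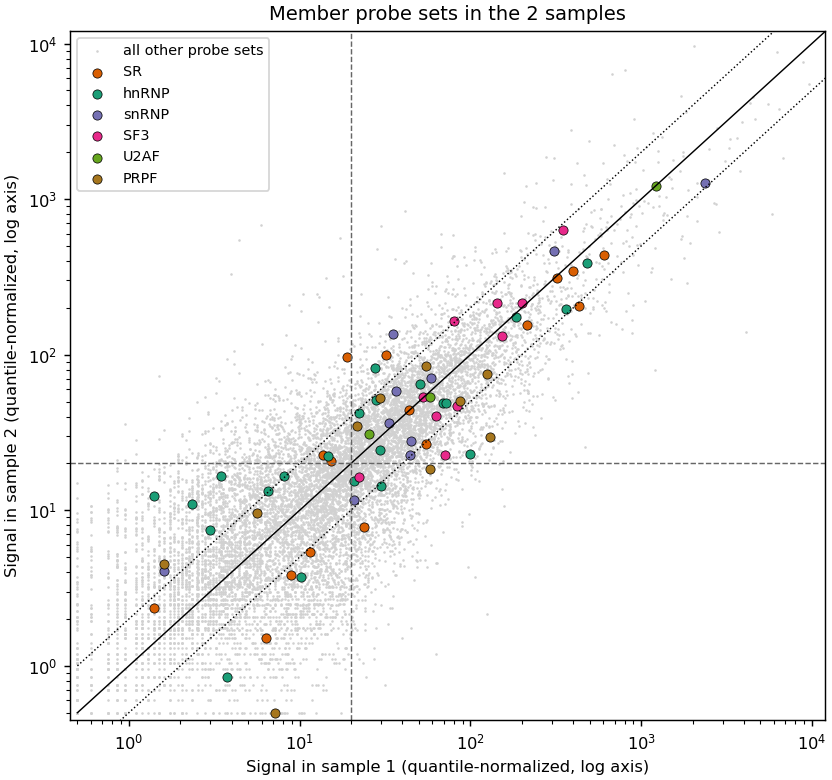
Signal in sample 2 (vertical log axis) against sample 1 (horizontal log axis) for all probe sets (grey) and for the 71 member probe sets coloured by family; signals under 0.5 are drawn at 0.5. The solid line marks equal signals, the dotted lines a 2-fold difference and the dashed lines the floor of 20, and the members lie within the cloud of all probe sets.

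The 4 genes with the largest differences were Prpf31 and Hnrnpm, higher in sample 1, and Srsf4 and Snrpg, higher in sample 2. Prpf31, which tethers the U4/U6 and U5 particles in the tri-snRNP, gave 130.8 in sample 1 but 29.8 in sample 2, a 4.39-fold difference (mean log2 signal 5.96 ± 1.51, SD, n = 2). Hnrnpm, an hnRNP that binds GU-rich RNA, had 99.6 and 23.05, 4.32-fold apart (5.58 ± 1.49, SD, n = 2). Srsf4, a large SR protein, was low in sample 1 by both of its probe sets, with 19.05 and 96.2 by the first and 32.1 and 100 by the second, or at least 4.81-fold and 3.12-fold. Snrpg, a subunit of the Sm ring, had 35.5 and 136.3, 3.85-fold apart (6.12 ± 1.37, SD, n = 2).

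The promoters of these 4 genes are shown because their genes moved furthest, in opposite directions. Each is the 250 bases before the annotated start, in RefSeq's annotation of GRCm38.p6, 5′ to 3′ on the gene's strand. Capitals mark the motifs searched on both strands: the ETS core (CCGGAAG), the CCAAT box (those letters), the GC box (GGGCGG), the TATA box (TATAAA) and the E-box (CACGTG). The Srsf4 promoter is the most upstream of the 3 starts listed.
Prpf31 promoter, chr7:3629735-3629984, plus strand: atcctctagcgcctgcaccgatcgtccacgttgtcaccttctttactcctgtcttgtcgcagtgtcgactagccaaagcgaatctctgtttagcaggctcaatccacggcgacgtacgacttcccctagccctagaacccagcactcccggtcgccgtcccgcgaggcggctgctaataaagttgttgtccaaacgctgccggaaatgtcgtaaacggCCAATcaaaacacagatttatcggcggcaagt
Hnrnpm promoter, chr17:33685459-33685708, minus strand: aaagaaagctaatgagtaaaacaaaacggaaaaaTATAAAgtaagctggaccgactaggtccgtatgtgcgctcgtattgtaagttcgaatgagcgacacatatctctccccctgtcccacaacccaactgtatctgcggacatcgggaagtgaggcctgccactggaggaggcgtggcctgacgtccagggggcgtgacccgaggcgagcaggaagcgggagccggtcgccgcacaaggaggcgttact
Srsf4 promoter, chr4:131873387-131873636, plus strand: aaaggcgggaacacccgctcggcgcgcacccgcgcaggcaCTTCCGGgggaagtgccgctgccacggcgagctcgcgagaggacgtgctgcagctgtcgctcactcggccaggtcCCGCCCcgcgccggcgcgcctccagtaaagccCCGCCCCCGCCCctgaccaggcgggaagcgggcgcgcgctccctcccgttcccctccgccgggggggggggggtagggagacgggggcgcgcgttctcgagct
Snrpg promoter, chr6:86371290-86371539, plus strand: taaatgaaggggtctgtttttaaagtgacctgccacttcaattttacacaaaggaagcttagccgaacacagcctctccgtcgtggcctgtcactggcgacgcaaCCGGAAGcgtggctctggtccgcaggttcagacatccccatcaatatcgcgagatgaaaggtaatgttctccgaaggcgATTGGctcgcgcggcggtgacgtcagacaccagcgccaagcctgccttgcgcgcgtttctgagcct

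The ETS core as searched, CCGGAAG, was present upstream of Srsf4 and Snrpg and not in the windows of Prpf31 and Hnrnpm. Parts of that string do occur there, CCGGAA in the Prpf31 window and GGAAG in that of Hnrnpm. Any link between motifs and the direction of a difference was not tested. In Snrpg the full string began 145 bases before the start, with a CCAAT box at 66. In Srsf4 it began at 210, with GC boxes at 135, 103 and 97, the last pair side by side. Prpf31 had a CCAAT box at 32 bases. Hnrnpm had the TATA letters at 216 bases, far upstream of where a TATA box acts. Across the members the table held 58 promoters for 46 of the 52 genes. Of these, 18 (31%) held the ETS core, beside 11.3% of the promoters of all genes named on the array and 6.91% of all 32851 promoters in the table. The GC box was in 39 of 58 (67.2%), beside 52.8% and 32.7%. The CCAAT box was in 28 (48.3%), beside 34.6% and 33.8%. TATA letters were in 4 (6.90%), beside 8.93% and 12.4%, and the E-box in 2 (3.45%), beside 8.22% and 6.02%. Median CpG observed over expected was 0.919 for the members, 0.665 for array genes and 0.373 for all promoters, and their median GC content was 60.0%, 58.8% and 52.4%. These motifs were chosen with the data in view, and a match describes the letters only.

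SR proteins carry RNA recognition motifs and a domain rich in arginine and serine, and their phosphorylation controls where they act. Of the 11 SR probe sets above controls, 6 were higher in sample 1 and 5 in sample 2, with a median difference of -0.04, which was 0.01 with median-centring in place of quantile normalization. It was -0.34 over the 8 with both signals above the floor. The 4 that were 2-fold apart were both probe sets of Srsf4 and those of Srsf6 and Srsf9. Srsf6 gave 435 and 205.7, 2.12-fold apart (8.23 ± 0.76, SD, n = 2), a log2 difference of -1.08 that fell under 2-fold, to -0.96, after median-centring. Srsf9 had 55.4 and 26.7, 2.07-fold apart (5.26 ± 0.74, SD, n = 2). Both were thus higher in sample 1, against the direction of Srsf4.

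The remaining SR genes were closer to equal. Srsf11 was the most even with 1 probe set, at 321 and 312, and Srsf5, also known for its induction by growth signals, had 399 and 343. Srsf2, which promotes exon inclusion and is a target of myelodysplastic mutations, had 602 and 435 by its first probe set and 43.9 and 44.2 by the other. Srsf3, the smallest classical SR protein, had 214 and 155.5 by a probe set shared within a sequence family, while its other probe set gave 11.5 and 5.40, not above controls. Srsf10, a splicing repressor when dephosphorylated, was at the edge of the floor by both probe sets, with 15.2 and 20.8, and 13.7 and 22.8. Srsf1, the founding SR protein, was the only SR gene not above controls in both samples. Its 4 probe sets ranged from 1.4 to 23.8 in sample 1 and from 1.5 to 7.85 in sample 2.

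The snRNP genes encode the Sm ring and the proteins particular to the U1 and U2 particles. Of 9 probe sets above controls 5 were higher in sample 2 and 4 in sample 1, with a median difference of 0.13, or 0.03 on the scale as deposited. Of the Sm ring, Snrpg and Snrpe were higher in sample 2, Snrpb was higher in sample 1, and Snrpd3 was nearly equal. Snrpe had 310 and 461, 1.49-fold apart, by a probe set shared within a sequence family. Snrpb, which encodes SmB, had 2351 and 1274, 1.85-fold apart (10.76 ± 0.62, SD, n = 2). Its other probe set gave 1.6 and 4.10, not above controls. Both are of a type chosen with relaxed rules. Snrpd3 had 33.2 and 36.5.

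Among the U1 and U2 genes, Snrpc of U1 had 59.0 and 70.8. The pseudogene Snrp1c-ps2 had 36.8 and 58.4 by a probe set shared within a sequence family, so its signal may not be its own. The U2 gene Snrpa1 had 44.4 and 22.8, 1.95-fold apart, a log2 difference of -0.96 that passed 2-fold, at -1.08, on the scale as deposited. Its partner on the U2 stem-loop, Snrpb2, had 45 and 28.0 by one probe set and 20.9 and 11.6, at least 1.04-fold apart, by another. Both Snrpb2 probe sets are of types with shared probes or relaxed rules. All 3 probe sets of the U2-specific pair were higher in sample 1, but the last lay at the edge of the floor.

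SF3A and SF3B are the parts of the U2 snRNP that hold the branch point. All 10 SF3 probe sets were above controls, 5 higher in each sample, with a median difference of -0.06, or 0.02 over the 9 with both signals above the floor. Subunits of 1 complex differed in both directions between these 2 samples. The replicate SD of those 9 was 0.58, beside 0.62 over all probe sets with both signals above the floor. In SF3A, Sf3a3 had 70.7 and 22.8, 3.10-fold higher in sample 1 (5.33 ± 1.15, SD, n = 2). Sf3a2 had 349.5 and 634, 1.81-fold higher in sample 2 (8.88 ± 0.61, SD, n = 2), and 201 and 215 by a second probe set. Both Sf3a2 probe sets are of types with shared probes or relaxed rules. Sf3a1 had 22.1 and 16.4, next to the floor.

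In SF3B the branch-point subunit Sf3b1 gave opposite answers by its probe sets. One had 63.2 and 40.4, 1.56-fold higher in sample 1, and the other had 80.6 and 165, 2.05-fold higher in sample 2. The log2 difference of the latter was 1.03, and 0.95, under 2-fold, on the scale as deposited. Sf3b2 had 144 and 216, the scaffold subunit Sf3b3 had 52.7 and 53.4, Sf3b5 had 153 and 132, and Sf3b6, which contacts the branch point region, had 83.5 and 46.7. Sf3b3 was the most even of the family, 1.01-fold apart.

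The U2AF heterodimer reads the pyrimidine tract and the final AG of the intron. Its genes varied least among the families, with a replicate SD of 0.13 over 3 probe sets and none 2-fold apart. Their median difference was -0.02, but 0.03 on the scale as deposited and 0.17 after median-centring. U2af2, the large subunit, had 1229.9 and 1209, 1.02-fold apart (10.25 ± 0.02, SD, n = 2). U2af1, the small subunit, had 25.4 and 30.98, and its paralogue U2af1l4 had 57.8 and 53.1. With 3 probe sets this spread is a description and was not tested against that of other families.

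PRPF genes encode the tri-snRNP and the complexes that activate it, and inherited mutations of several of them cause retinitis pigmentosa. Of 7 probe sets above controls 4 were higher in sample 1 and 3 in sample 2. Their median difference was -0.74, but -0.05 over the 6 with both signals above the floor, and 0.0 over all 10. Of the tri-snRNP, the members Prpf31, Prpf6 and Prpf8 were all higher in sample 1. Spliceosome core genes that are not members went both ways. Of 38 above controls, 20 were higher in sample 1, 14 in sample 2 and 4 at the floor. Prpf8, the protein at the heart of the catalytic core, had 126.0 and 75.6, 1.67-fold apart (6.61 ± 0.52, SD, n = 2). Prpf6, which bridges the particles, had 87.3 and 50.8, 1.72-fold apart. Prpf38a, needed for activation, had 57.8 and 18.4, at least 2.89-fold apart.

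The other PRPF genes went the opposite way or were not measured. Prpf38b had 29.6 and 52.4. Prpf19, the ubiquitin ligase of the complex that stabilises the active spliceosome, was higher in sample 2 by both probe sets, at 54.9 and 85.0 and at 21.6 and 35, or 1.55-fold and 1.62-fold. The kinase gene Prpf4b had 5.65 and 9.60. Prpf39, a U1-associated factor, had 1.6 and 4.50 by one probe set and 7.15 and 0.30 by the other.

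The hnRNP genes form the largest of the families. Of their 14 probe sets above controls 9 were higher in sample 1 and 5 in sample 2, with a median difference of -0.17. It was -0.29 with 1 probe set per gene, -0.07 over probe sets without a suffix and 0.0 over all 22. With the floor, only Hnrnpm and Hnrnpa1 were 2-fold apart. Hnrnpa1, a splicing repressor that also shuttles mRNA to the cytoplasm, had 27.7 and 82.05, 2.96-fold higher in sample 2 (5.58 ± 1.11, SD, n = 2). A further probe set that names Hnrnpa1 together with Gm10052 and Gm5643, and so is not a member, had 93.5 and 65.8, in the opposite direction. Hnrnpa2b1, the close relative of Hnrnpa1, had 361 and 198, 1.82-fold higher in sample 1, and 14.8 and 22.4 by its other probe set. Hnrnpab had 68.8 and 48.9, with 3 and 7.5 by another.

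The remaining hnRNP genes above controls did not reach 2-fold once signals under 20 were set to the floor. Hnrnpd, the AU-rich element binder AUF1, was the most even of the family by a signal above the floor, at 184.5 and 176 (1.05-fold). Its relative Hnrnpdl had 484 and 390.05 by its first probe set, 22.25 and 42.2 by the next and 3.75 and 0.85 by the last. Hnrnph1, which binds G-runs, had 50.4 and 64.5, and Hnrnph3 had 20.9 and 15.4. Hnrnpk, which binds C-rich RNA through KH domains, had 28.0 and 51.2, 1.83-fold higher in sample 2. Hnrnpll, the lymphocyte regulator of CD45 splicing, had 71.7 and 48.9, and Hnrnpul2 29.5 and 24.4, with 2.35 and 11.05 by another probe set. Hnrnpr had 30.0 and 14.2, at least 1.5-fold apart, and its log2 difference without the floor was -1.07.

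Some hnRNPs counted among the most abundant nuclear proteins gave little signal on this array. Hnrnpc had 8.05 and 16.7, Hnrnph2 6.50 and 13.4, and Hnrnpl 3.45 and 16.5. Each was above controls in sample 2 and not in sample 1. Hnrnpu, the scaffold attachment factor, had 1.4 and 12.4 by one probe set and 10.2 and 3.75 by the other, and exceeded the control level only in sample 2, by the former. Every signal of these 4 genes was under the floor of 20, so no difference was calculated.

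**Figure D3:**
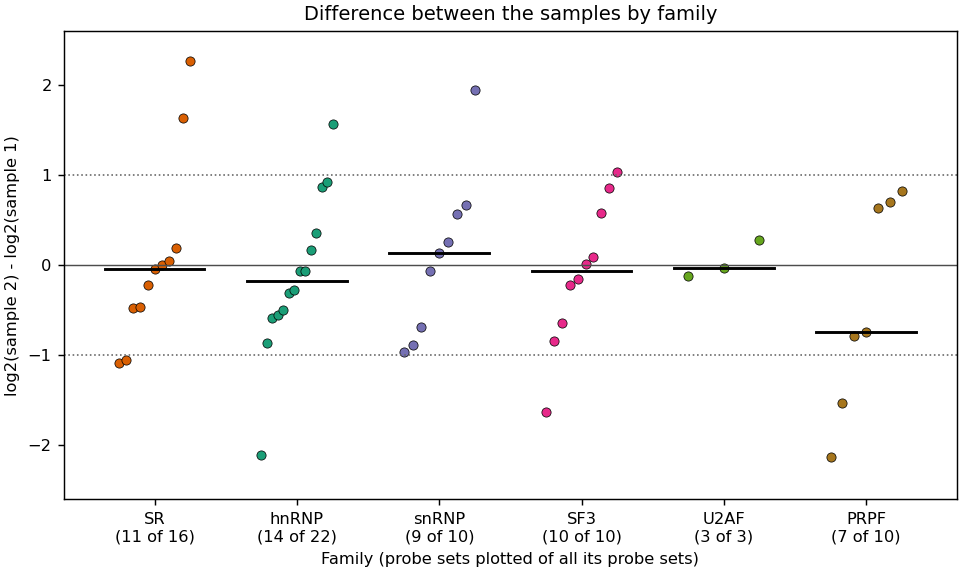
Difference between the samples on the log2 scale for the 54 member probe sets above controls, by family, with the median as a black bar; points above 0 were higher in sample 2 and dotted lines mark 2-fold. Points of every family lie on both sides of 0, those of U2AF closest to it, and the PRPF median, -0.74, lies furthest from 0.

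Probe sets of the same gene did not always agree, and the same shares over all genes on the array were not calculated. Of the 52 genes 16 had several probe sets, 35 in all. In 5 of the 16 genes some probe sets were above controls and others were not, and in 3 none was. Of the 9 genes with at least a pair above controls, Hnrnpdl again among them, 5 gave 1 direction (Prpf19, Sf3a2, Snrpb2, Srsf10 and Srsf4) and 4 gave both (Hnrnpa2b1, Hnrnpdl, Sf3b1 and Srsf2). Among those 4, only Sf3b1 had a probe set past 2-fold. The direction of the weaker Srsf2 probe set rested on 1.01-fold, and that of the weaker Hnrnpa2b1 probe set on at least 1.12-fold. Only Srsf4 was past 2-fold by both of its probe sets. Of the 71 probe sets 18 carry a suffix for probes shared between sequences or chosen under relaxed rules. Those 14 of the 18 above controls had a median difference of 0.05 with 1 past 2-fold, and the 40 without a suffix had -0.09 with 10 past 2-fold.

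**Figure D4:**
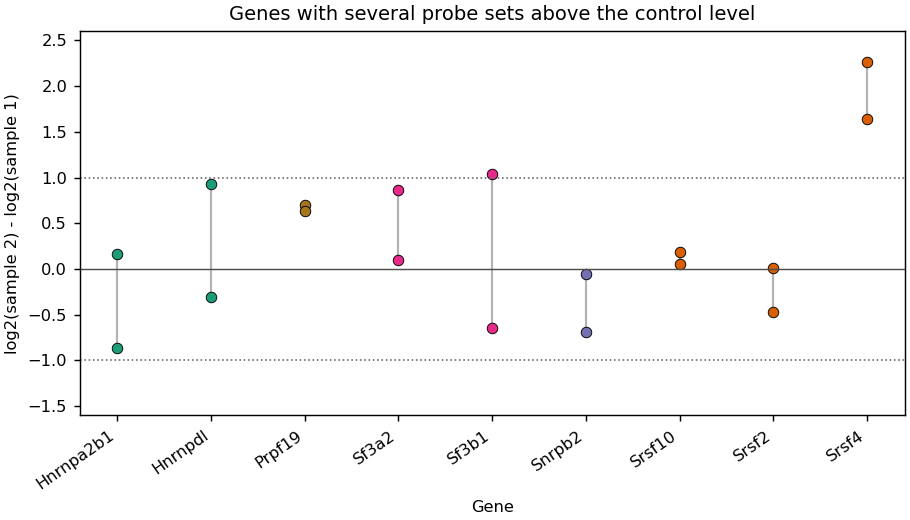
Difference between the samples on the log2 scale for the 9 member genes with several probe sets above controls, each point a probe set and each grey line a gene. The points of Srsf4 lie at 1.64 and 2.27, those of Sf3b1 at -0.64 and 1.03.

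Further splicing genes outside the name rule were taken from 4 lists with 168 genes, of which 112 were on the array, each taken by the probe set with the highest mean signal. By that probe set 82 (73.2%) were above controls in both samples, beside 56.6% of all named genes taken the same way, and 15 of them were 2-fold or more higher in sample 1 and 7 in sample 2. Together these 22 are 26.8% of the 82, beside 20.5% of all named genes above controls by 1 probe set each. The median difference of the 82 was -0.09, and that of 45 member genes taken the same way -0.15, beside 0.0 over all 4667 such genes. The spliceosome core list had 38 of 46 genes above controls, with 7 past 2-fold higher in sample 1 and 1 in sample 2. SR-related proteins and kinases had 13 of 21, with 3 and 1. hnRNP-like proteins and regulators had 24 of 33, with 2 and 4. Exon junction and snRNP assembly factors had 7 of 12, with 3 and 1.

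The genes furthest apart with both signals above the floor included partners of the members. Higher in sample 1 were Tardbp, the hnRNP-like protein TDP-43 (88.1 and 27.6, 3.19-fold), and Clns1a, which delivers Sm proteins for assembly (89.3 and 29.8, 3.0-fold). The spliceosome factor Smu1 (71.1 and 23.9, 2.97-fold), the exon junction factor Rnps1 (137.9 and 47.0, 2.94-fold) and the export adaptor Alyref (84.2 and 29.1, 2.89-fold) were also higher there. Higher in sample 2 were the U2AF-related Rbm39 (48.4 and 239, 4.93-fold) and Smn1, the core of the complex that loads Sm rings (73.8 and 294, 3.99-fold). The same held for the RNA-binding protein gene Ybx1 (906 and 3294, 3.64-fold), the SR protein kinase gene Clk1 (116 and 331, 2.86-fold) and the hnRNP-like Syncrip (59.8 and 156, 2.62-fold). Of the 7 exon junction and assembly genes above controls, Smn1 was the 1 higher in sample 2, and 6, Clns1a among them, were higher in sample 1.

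**Figure D5:**
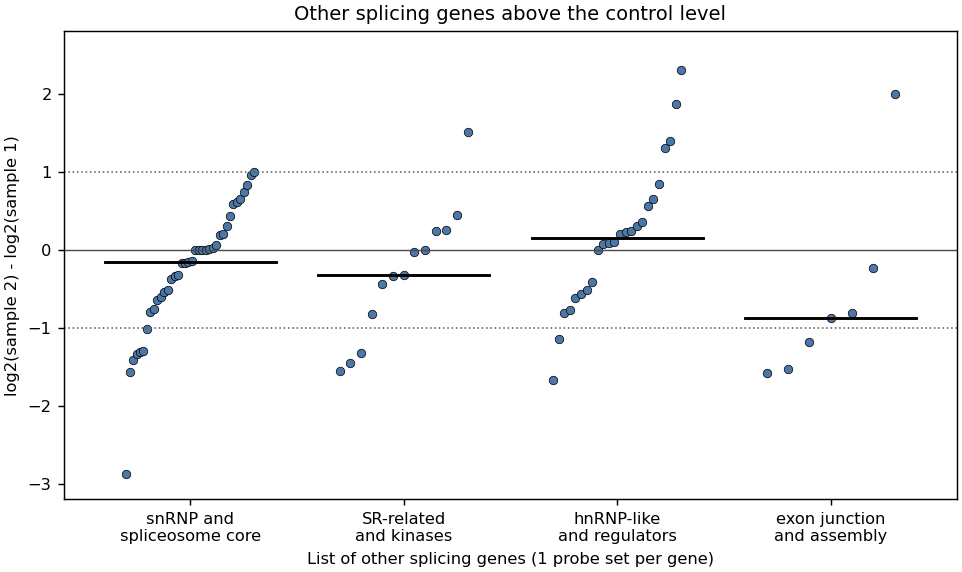
Difference between the samples on the log2 scale for 82 splicing genes outside the name rule that were above controls, 1 probe set per gene, by list, with the median as a black bar and dotted lines at 2-fold. The medians were -0.16, -0.32, 0.15 and -0.87 from left to right, the last over 7 genes.

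Other gene groups differed between these samples alongside the members. Of 14 immediate early genes, which respond to handling and stimulation within minutes, 11 were above controls and all 11 were higher in sample 2, with a summed signal over the 14 of 765 in sample 1 and 6048 in sample 2. Of 4 granule genes of myeloid progenitors all were higher in sample 1, with summed signals of 2625 and 736. The 14 stem and early progenitor genes summed to 2361 and 3978, and of the 11 above controls 7 were higher in sample 2, 3 in sample 1 and 1 at the floor. Mature neutrophil genes (5 of 7 above controls) summed to 537 and 1110, with 3 higher in sample 2, 1 in sample 1 and 1 at the floor. Erythroid genes (4 of 6) summed to 783 and 899, although 3 of the 4 were higher in sample 1. B cell genes (5 of 5) summed to 1051 and 795.5, although 3 of the 5 were higher in sample 2. Lineage antigen genes summed to 95.4 and 106.2, and neuronal genes (3 of 8, with Eno2, Gap43, Nefl, Snap25 and Syp not above) to 171 and 168. The part of these groups in the differences of Srsf4, Snrpg, Prpf31, Hnrnpm and the other members was not tested, and with bulk samples fewer cells of a type and less RNA per cell cannot be told apart.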

How the data were processed

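The authors deposited 1 linear signal intensity per probe set for 12488 probe sets in each of 2 samples, and both deposited columns have a mean of 53.944. The software, scaling and scanner files behind them are not given in the sources used here. RNA was amplified in 2 rounds, per the labels' protocols. Python 3.11.15 with numpy 2.4.6, pandas 2.3.3 and matplotlib 3.10.9 was used. The 2 columns were quantile-normalized over all probe sets, counts excluded 66 control probe sets, and signals under 20 were set to 20 before log2. Gene symbols came from the platform annotation, and all 52 member genes matched the GRCm38.p6 gene table by gene ID with unchanged symbols. That table's gene coordinates are not used, because the probe table names no build. The normalization and the 2-fold counting were run on simulated data, with changes far larger than 2-fold placed in strong signals only. The simulated noise was smaller than the spread between these samples, and false calls were not counted. That run therefore says nothing about differences near 2-fold or about weak signals. With 1 group of 2 samples no test was made, and on an array the number of samples limits the precision.

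The members, the lists and the thresholds were chosen with earlier results of these data known. Every member gene was described. Of the other splicing genes, the rule names at most 5 in each direction, those 2-fold or more apart with both signals above the floor. Alternatives were other scalings, an offset of 32, no floor, no filter, other control levels, 1 probe set per gene, plain probe sets only, and limits of 1.5-fold and 3-fold.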

Additional observations from a re-analysis of the deposited data

How the results depend on the processing

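The count of 45 member genes above the control level was 45 with the highest bacterial signal or the deposited scaling, 51 with the median bacterial signal, 46 or 50 with 1 sample alone and 40 if every probe set of the gene was required. It was 22 at a fixed signal of 50. The median difference of -0.06 ranged from -0.15 (1 probe set per gene) to 0.0 (no filter). The counts of member probe sets 2-fold higher in sample 1 and in sample 2, 6 and 5, were 7 and 4 with the deposited scaling and 5 and 5 with median-centring. Snrpa1 was gained and Sf3b1 lost on the deposited scale, and Srsf6 was lost with median-centring. Without the floor Hnrnpr passed 2-fold (-1.07). An offset of 32 before log2 gave 2 and 3, since it shrinks differences of weak signals. A limit of 1.5-fold gave 14 and 12, and 3-fold gave 3 and 3. The shares over all genes or probe sets at these other settings are not given here. The changed counts are therefore no result about splicing genes as a class. Under the offset the differences of Prpf31, Hnrnpm, Srsf4 and Snrpg stayed past 2-fold, and those of Sf3a3 (-0.91), Prpf38a (-0.83), Srsf6 (-0.98), Srsf9 (-0.57), Hnrnpa1 (0.93) and the higher Sf3b1 probe set (0.81) did not. Of 216 values of single probe sets under 4 alternatives 0 of those past 2-fold changed sign. These alternatives could hardly turn a difference that large. Some small differences did change sign, such as Sf3b3 (0.02, and -0.09 as deposited) and Srsf11 (-0.04, and 0.01 with median-centring). The median over all probe sets above the control level, without a floor, was -0.08 with quantile normalization, -0.18 as deposited and -0.05 with median-centring. The SR median was 0.01 with median-centring, that of U2AF 0.03 as deposited and 0.17 with median-centring, and that of SF3 0.02 with both signals above the floor, each of opposite sign to the value in the report. Over all settings the snRNP median ranged from 0.03 to 0.20 and the hnRNP median from -0.29 to 0.0.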

Other observations

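Probe sets that name a member together with another gene were left out of the members, and 7 of them were found. They hold the only signals here for Snrpa, Snrpd1, Snrpd2 and Hnrnpa3. The U1 gene Snrpa, named with Gm21559 and Gm5161, had 80.8 in sample 1 and 142.1 in sample 2. The Sm genes Snrpd1 (with Gm14277) and Snrpd2 (with Gm5848) had 22.4 and 14.6, and 217 and 167. Hnrnpa3, named with Gm6793, had 718 and 429 by one probe set and 4.88 and 6.05 by another. None was 2-fold apart.

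Among the other splicing genes, 2 chosen after their values were seen stood far apart with 1 signal under the floor. Txnl4a, a small protein of the U5 particle, had 146.8 in sample 1 and 19.9 in sample 2, at least 7.34-fold. Rbfox2, a regulator of alternative exons, had 5.95 in sample 1, not above the control level, and 686 in sample 2, at least 34.3-fold.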
